A study of Mus musculus with 8 samples.

Results

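The 10 genes described here are *Tcf7l2*, the other 3 members of its transcription factor family (*Tcf7l1*, *Tcf7* and *Lef1*), and 6 genes of the canonical Wnt pathway around them (*Ctnnb1*, *Lrp6*, *Apc*, *Axin2*, *Znrf3* and *Apcdd1*). They were picked by symbol from the 23427 genes of the expression table, and all 10 had a row of their own. The rule used the symbols alone. The libraries came from wild-type (WT) C57BL/6J mouse oligodendrocyte precursor cells (OPCs), immunopanned with an antibody to PDGFRα starting with cortex from 3 pups aged 7 postnatal days, and cultured without any genetic change. Day 0 cells had been kept as proliferating OPCs with PDGF-AA, and Day 1, Day 2 and Day 3 cells had spent that many days in differentiation medium, in which PDGF-AA was left out and thyroid hormone (T3, 40 ng/mL) was added. Each day had 2 libraries, 8 in all, which the study calls independent experiments.

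In canonical Wnt signaling, a Wnt ligand binds a Frizzled receptor and its co-receptor Lrp5 or Lrp6 and thereby halts the destruction complex, which contains Apc, Axin1 or Axin2 and the kinase Gsk3 and otherwise marks β-catenin (the product of *Ctnnb1*) for breakdown. Spared β-catenin enters the nucleus and binds TCF/LEF factors, which sit on target genes and act as repressors with Tle co-repressors when β-catenin is absent. *Axin2*, *Znrf3* and *Apcdd1* are induced by the pathway in many tissues and damp it again, so they are often read as its feedback genes. In the oligodendrocyte (OL) lineage, Tcf7l2 is known as a factor of newly forming OLs that is needed for their maturation, and prolonged β-catenin activity is known to delay myelination.

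*Tcf7l2* lies on chromosome 19 from 55741820 to 55933654 on the plus strand (GRCm38, GENCODE mouse release 21), and 12 of its 22 annotated transcripts are coding. The values here are per gene and add all of these together. The study's own assay oligonucleotides for this transcript are shown because they mark an exon pair that 21 of the 22 transcripts share. In the probe, capitals mark the 12 bases that lie in the next exon.
Tcf7l2 forward primer: tccacctccgcacttacca
Tcf7l2 probe: cgtagaccccaaaacagGAATCCCAAGGC
Tcf7l2 reverse primer: gacagcgggtaatatggagagata
The forward primer matched chr19:55908515-55908533, the probe joined chr19:55908539-55908555 to chr19:55910579-55910590, and the reverse primer, on the opposite strand, matched chr19:55910607-55910630. All 3 matches were in coding sequence, within an amplicon of 93 nt.

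Values are FPKM, fragment counts scaled to the length of the transcript and to the mapped fragments of the library. From the smallest FPKM steps, the libraries were estimated to hold 960000 to 1530000 fragments each, with the fewest in Day 3 replicate 2. OPC markers (*Pdgfra*, *Cspg4*, *Ptprz1* and *Lhfpl3*) summed to 934.5 and 953.9 FPKM at Day 0. Markers of mature OLs (8 genes) summed to 789.2 and 1076 FPKM at Day 0 and were at 18990 or above at Day 3. Of 7 microglial markers 6 were at 0 in every library, and of 7 endothelial markers *Cldn5*, *Cdh5* and *Tek* were at 0. *Kdr*, also on the endothelial list, was at 3.11 and 2.69 FPKM at Day 0 and at 2.69 and 0.574 at Day 3. The 7 neuron markers summed to 4.202 and 10.61 FPKM at Day 0 and to 1.755 and 2.581 at Day 3. All 9 astrocyte markers were detected, with a summed level of 218.8, 432.5, 498.1 and 418.0 FPKM from Day 0 to Day 3 in replicate 1 and 449.2, 714.5, 843.4 and 1072 FPKM in replicate 2. The sum was thus higher at Days 1 to 3 than at Day 0 in both replicates, but its markers did not move together. In replicate 1 *S100b* was the highest of the 9 on every day. It was at 71.04, 264.1, 364.8 and 266.03 FPKM from Day 0 to Day 3 there. In that replicate *Gfap* and *Aldoc* were also higher at Days 1 to 3 than at Day 0, and *Slc1a3*, *Slc1a2* and *Sox9* were lower. The sum in replicate 1 thus followed *S100b* and not the list as a whole. *Gfap* went from 14.7 to 45.5 FPKM in replicate 1 and from 153.9 to 602.8 FPKM in replicate 2 between Day 0 and Day 3 (adjusted p = 0.457, or 0.000126 with the replicate block), whereas *Sox9*, which OPCs also express, fell (adjusted p = 0.0123). The part of astrocytes in the differences between days was not tested. In these bulk libraries a lower share of cells that use a gene and less of its RNA per cell cannot be told apart.

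**Figure D1:**
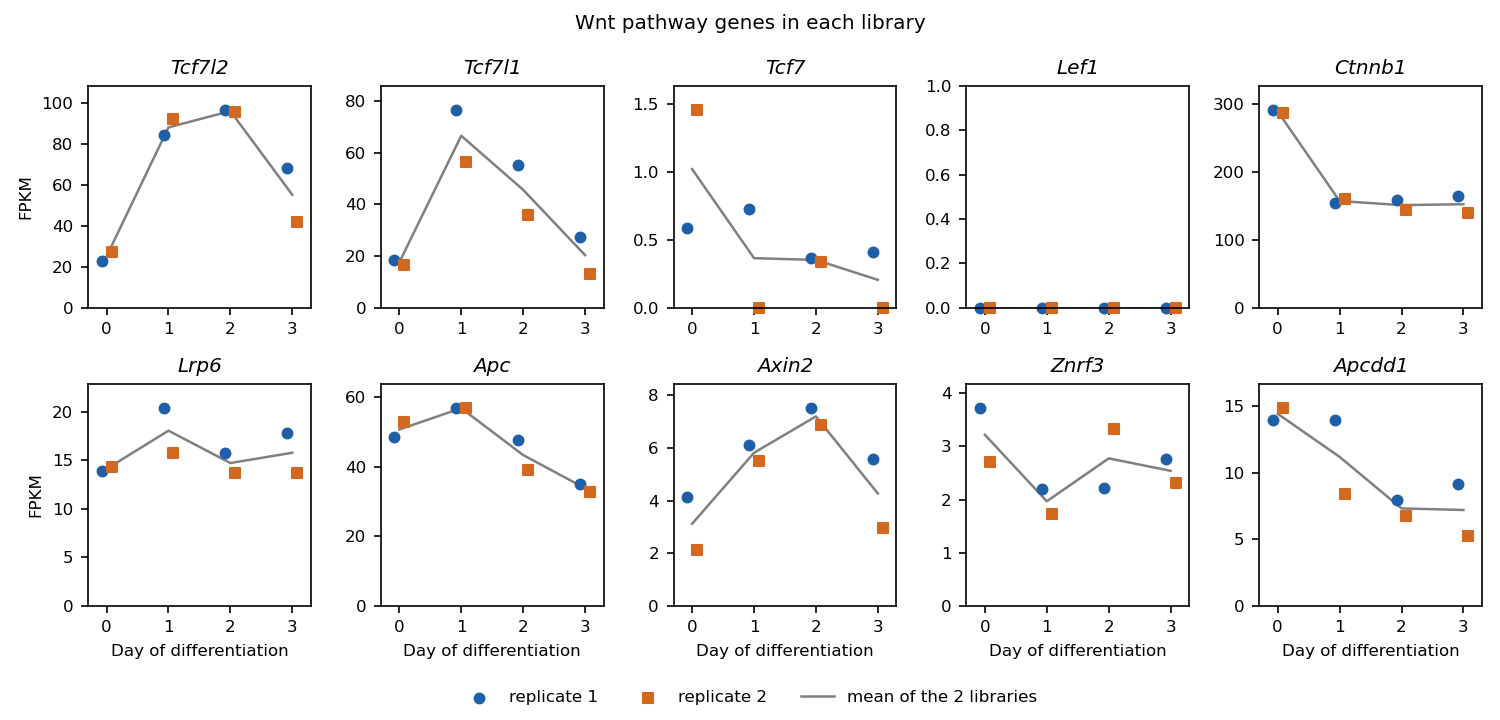
FPKM (linear axes from 0, a scale of its own for each gene) against day of differentiation for the 10 genes; circles and squares are the libraries of replicate 1 and 2, shifted slightly sideways, and lines join the means of the 2 libraries. *Tcf7l2* went from 25.1 FPKM at Day 0 to 96.1 at Day 2 and 55.2 at Day 3, *Ctnnb1* went from 289.5 to 157.3 FPKM by Day 1, and *Lef1* was at 0 in all 8 libraries.

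*Tcf7l2* was at 22.8 and 27.3 FPKM in the Day 0 libraries, 84.2 and 92.0 at Day 1, 96.7 and 95.4 at Day 2, and 68.3 and 42.0 at Day 3. The Day 0 libraries were the lowest and did not overlap those of any later day, and the Day 3 libraries lay between Day 0 and the middle days. The mean was 25.1 ± 3.19 (SD, n = 2) FPKM at Day 0, 88.1 ± 5.56 at Day 1, 96.1 ± 0.93 at Day 2 and 55.2 ± 18.6 at Day 3. Differences between days were tested with limma on log2(FPKM + 1) over 12208 genes with at least 1 FPKM in at least 2 libraries, with Benjamini-Hochberg adjustment over all of them and calls at an adjusted p under 0.05. On that scale, which understates changes of low genes, *Tcf7l2* rose by 1.78 (log2, SE 0.217) from Day 0 to Day 1, with an adjusted p of 0.00162. It ranked 119th from the top of the 12208 genes in that step. Day 2 against Day 1 was 0.12 (adjusted p = 0.769). Day 3 against Day 2 was -0.83 (SE 0.217) with an adjusted p of 0.139, which is not a call, although the Day 3 level was 0.706 times the Day 2 level within replicate 1 and 0.440 times within replicate 2. *Tcf7l2* at Day 3 was still above Day 0, by 1.07 (SE 0.217, adjusted p = 0.00581), or 2.20 times the Day 0 mean in FPKM. Without Day 0 replicate 1 that difference was 0.95 with an adjusted p of 0.0519 and was no longer called.

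*Tcf7l1*, the family member best known as a repressor in stem cells, was at 18.6 and 16.6 FPKM at Day 0, 76.7 and 56.5 at Day 1, 55.3 and 36.1 at Day 2, and 27.6 and 13.1 at Day 3. Its highest libraries were those of Day 1, and the Day 3 libraries lay on either side of those of Day 0. It rose by 1.85 (SE 0.339) from Day 0 to Day 1, with an adjusted p of 0.00945, and leaving out Day 0 replicate 1, Day 0 replicate 2 or Day 1 replicate 1 gave adjusted p of 0.0675, 0.0853 and 0.0569. Day 3 against Day 2 was -1.18 (SE 0.339) with an adjusted p of 0.162; with the replicate number as a block it was called (adjusted p = 0.0415). Day 3 against Day 0 was 0.11 (adjusted p = 0.811). *Tcf7l1* was lower in replicate 2 than in replicate 1 on 4 of 4 days, by 0.55 in log2 on average (adjusted p = 0.174), and the astrocyte marker sum was higher in replicate 2 on the same days; the part of those cells in the result was not tested.

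*Tcf7* and *Lef1*, the factors of T cells and of many other Wnt-responsive tissues, were at or near the limit of detection. *Lef1* was at 0 FPKM in all 8 libraries, and 3 fragments, the limit that a count of 0 allows, would correspond to 0.562 to 0.899 FPKM depending on the library. *Tcf7* was at 0.583 and 1.46 FPKM at Day 0, 0.729 and 0 at Day 1, 0.367 and 0.336 at Day 2, and 0.410 and 0 at Day 3. Its levels matched 11 whole fragments over the 8 libraries, at most 4 in any of them, so no difference between days could be seen at this depth. These limits cover counting error only. Neither gene passed the filter on low values, and 8 of the 10 genes were tested.

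On the per-length scale, *Tcf7l2* made up 54.3% and 60.2% of the summed FPKM of its family at Day 0, 52.1% and 61.9% at Day 1, 63.5% and 72.4% at Day 2, and 70.9% and 76.2% at Day 3. *Tcf7l1* made up nearly all of the rest. The summed family level was 42.0 and 45.4 FPKM at Day 0, 161.6 and 148.6 at Day 1, 152.4 and 131.8 at Day 2, and 96.3 and 55.2 at Day 3. The shares of Day 3 lay above those of Days 0 and 1 in both replicates.

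*Ctnnb1*, which encodes β-catenin, was the most abundant of the 10 genes in all 8 libraries. It was at 291.9 and 287.1 FPKM at Day 0, 153.8 and 160.8 at Day 1, 158.3 and 144.2 at Day 2, and 165.0 and 140.3 at Day 3. The Day 0 libraries stood far above the other 6, which overlapped one another. *Ctnnb1* fell by 0.88 (SE 0.129) in log2 from Day 0 to Day 1, with an adjusted p of 0.00351, and Day 3 was below Day 0 by -0.92 (SE 0.129, adjusted p = 0.00103). The later steps were -0.06 for Day 2 against Day 1 (adjusted p = 0.823) and 0.01 for Day 3 against Day 2 (adjusted p = 0.987). The gene lies on chromosome 9 from 120929216 to 120960507 (GRCm38) and overlaps *Ulk4* on the other strand; the library kit marks strand, but whether the counting used it is not given in the sources used here.

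*Lrp6*, the co-receptor, was at 13.9 and 14.3 FPKM at Day 0, 20.4 and 15.7 at Day 1, 15.8 and 13.6 at Day 2, and 17.8 and 13.7 at Day 3. Its levels came from 123 to 234 fragments per library. No day stood apart from all the others. Its test for any change over the 4 days, limma's moderated F test, gave an adjusted p of 0.563, and its difference between Day 3 and Day 0 was 0.14 (SE 0.211).

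*Apc*, the scaffold of the destruction complex and also a microtubule-binding protein, was at 48.4 and 52.9 FPKM at Day 0, 56.8 and 56.7 at Day 1, 47.7 and 39.0 at Day 2, and 35.0 and 32.6 at Day 3. The Day 3 libraries were the lowest and overlapped no other day. *Apc* was lower at Day 3 than at Day 0 by -0.57 (SE 0.146), with an adjusted p of 0.0164. The median of all genes tested was -0.31 in the same contrast, and after median ratio scaling, which puts that median at -0.04, the difference of *Apc* was -0.26 with an adjusted p of 0.177. The call was also lost without Day 0 replicate 1 (adjusted p = 0.0540), Day 0 replicate 2 (0.0999) or Day 3 replicate 2 (0.0715).

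*Axin2*, the inducible scaffold and the feedback gene most used as a readout of the pathway, was at 4.13 and 2.11 FPKM at Day 0, 6.13 and 5.51 at Day 1, 7.52 and 6.88 at Day 2, and 5.60 and 2.94 at Day 3. Those levels correspond to 27 and 11, 32 and 30, 39 and 39, and 26 and 12 whole fragments. The libraries of Days 1 and 2 all lay above those of Day 0, and Day 3 overlapped Day 0. None of its contrasts was called. Day 1 against Day 0 was 0.77 (SE 0.355, adjusted p = 0.210), and the middle days (1 and 2) against the ends (0 and 3) were 0.73 (SE 0.251, adjusted p = 0.124; adjusted p = 0.0604 with the replicate block). The means were 3.12 ± 1.43 (SD, n = 2) FPKM at Day 0 and 4.27 ± 1.88 at Day 3, and the replicates were closer together at Days 1 and 2.

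*Znrf3*, a membrane ubiquitin ligase that removes Frizzled receptors, was at 3.72 and 2.71 FPKM at Day 0, 2.20 and 1.74 at Day 1, 2.21 and 3.33 at Day 2, and 2.76 and 2.32 at Day 3. These values rest on 14 to 36 fragments a library. The lowest mean was that of Day 1, at 1.97 ± 0.33 (SD, n = 2) FPKM, and its test for any change over the 4 days gave an adjusted p of 0.574 with limma.

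*Apcdd1*, a membrane-bound inhibitor of Wnt receptors, was at 14.0 and 14.8 FPKM at Day 0, 14.0 and 8.38 at Day 1, 7.92 and 6.71 at Day 2, and 9.17 and 5.22 at Day 3. Its levels matched 60 and 51, 48 and 30, 27 and 25, and 28 and 14 whole fragments, at a fitted length of 2799 bases. The Day 0 libraries lay above those of Days 2 and 3 without overlap and overlapped those of Day 1. It was lower at Day 3 than at Day 0 by -0.95 (SE 0.315), with an adjusted p of 0.0433 (0.0194 with the replicate block). The call was lost with median ratio scaling (-0.67, adjusted p = 0.120), without Day 3 replicate 2 (-0.60, adjusted p = 0.224), and without Day 0 replicate 1, Day 0 replicate 2, Day 2 replicate 1 or Day 2 replicate 2 (adjusted p = 0.138, 0.168, 0.0606 and 0.0599).

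Set beside all genes tested, 4 of the 8 tested genes were called from Day 0 to Day 3, with *Tcf7l2* higher and *Ctnnb1*, *Apc* and *Apcdd1* lower, where 12% of all genes were called higher and 26.3% lower. From Day 0 to Day 1, *Tcf7l2* and *Tcf7l1* were called higher and *Ctnnb1* lower, against 5.04% and 7.56% of all genes. With limma none of the 8 was called from Day 1 to Day 2, when 2.16% of all genes were called higher and 1.73% lower, and 1 of them (*Apc*) had an unadjusted p under 0.05. None was called from Day 2 to Day 3, when 0.246% were called higher and 0.0491% lower. In that last step 3 of the 8 had an unadjusted p under 0.05, all lower, and 1 was called with the replicate block. For the middle days against the ends, *Tcf7l2* and *Tcf7l1* were called higher and *Ctnnb1* lower, against 3.69% and 4.87% of all genes. The middle days were above the ends by 1.30 (SE 0.154, adjusted p = 0.00340) for *Tcf7l2* and by 1.52 (SE 0.239, adjusted p = 0.00792) for *Tcf7l1*, which ranked 92nd and 50th from the top of the 12208 genes. Without Day 0 replicate 2 the adjusted p of *Tcf7l1* was 0.0503. For *Ctnnb1* the difference was -0.44 (SE 0.091, adjusted p = 0.0217), and leaving out any 1 of the 6 libraries of Days 0 to 2 raised the adjusted p to between 0.0517 and 0.0952. Any change over the 4 days was called for *Tcf7l2*, *Ctnnb1*, *Tcf7l1* and *Apc*, against 35.2% of all genes, and with the replicate block also for *Apcdd1* (adjusted p = 0.0463, against 0.101 without it). These contrasts share libraries and are not independent of one another.

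**Figure D2:**
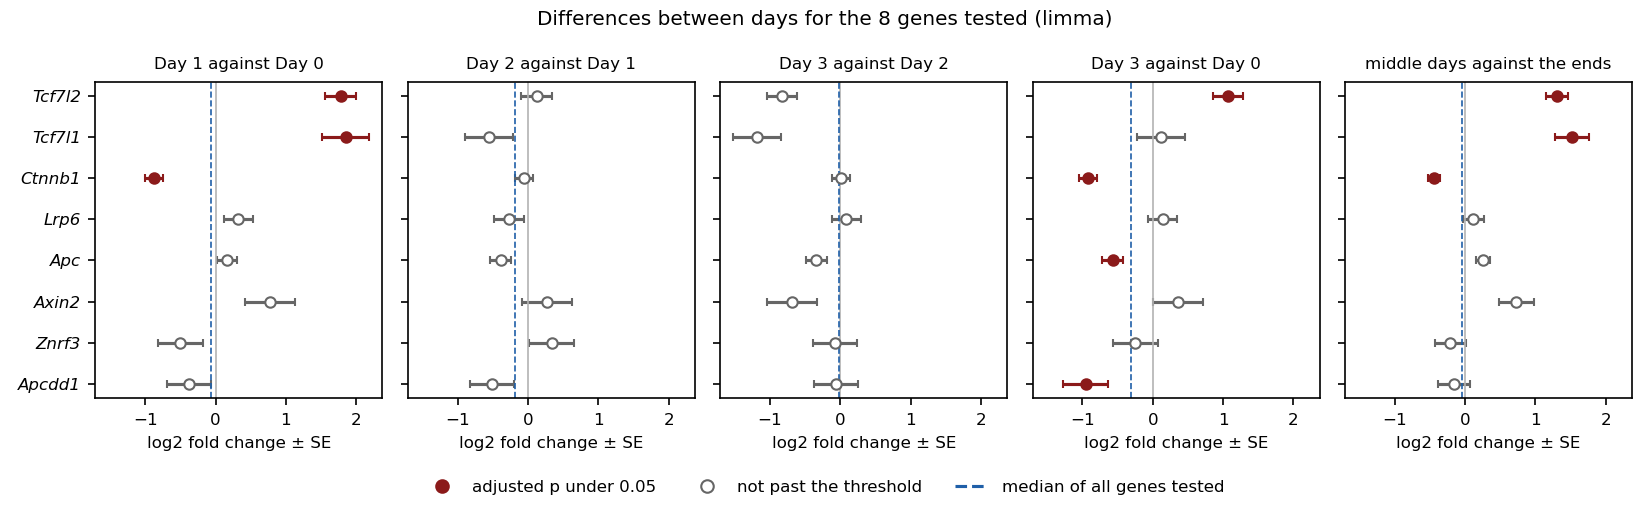
log2 fold change with its SE (x axis, limma on log2(FPKM + 1)) of the 8 genes tested in 5 contrasts between days; filled points passed an adjusted p of 0.05 and the dashed line is the median of all 12208 genes. *Tcf7l2* and *Tcf7l1* are the filled points to the right in the contrast of Day 1 with Day 0 (1.78 and 1.85), and *Ctnnb1* is filled to the left there and at Day 3 against Day 0 (-0.88 and -0.92).

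The course of *Tcf7l2* was then compared with that of each partner inside the same library, as the difference of their log2(FPKM + 1). An exact one-sided permutation test of the F ratio between days (2520 arrangements, smallest possible p 0.00952, adjusted over 8 genes) called 4 of the 8 differences as changing with day. This test was not run for *Tcf7l2* against other genes, so no share over all genes stands beside that count. *Tcf7l2* itself changed over the days (adjusted p = 0.00115, limma's moderated F test), so its own course can give a call against a level gene. *Lrp6* had an adjusted p of 0.563 in that F test. Against *Ctnnb1* the mean difference went from -3.48 ± 0.19 (SD, n = 2) at Day 0 to -0.83 ± 0.04 at Day 1, -0.65 ± 0.08 at Day 2 and -1.49 ± 0.32 at Day 3 (adjusted p = 0.0381, permutation). In other words, *Ctnnb1* was far above *Tcf7l2* per length at Day 0, and the levels of the 2 genes were nearest at Day 2. Against *Lrp6* the difference was 0.78 at Day 0, 2.24 at Day 1, 2.63 at Day 2 and 1.72 at Day 3 (adjusted p = 0.0381, permutation).

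Against *Axin2* it was 2.70, 3.71, 3.57 and 3.42 from Day 0 to Day 3 (adjusted p = 0.0381, permutation), and the adjusted p was 0.229 with a pseudocount of 0.1 and 0.0610 with median ratio scaling. Against *Znrf3* it was 2.63, 4.91, 4.70 and 3.95 (adjusted p = 0.0381, permutation), and 0.0508 with either alternative. The calls for *Axin2* and *Znrf3* were lost when any library other than Day 0 replicate 2 was left out. The differences to *Apc*, *Apcdd1* and *Tcf7* each had an adjusted p of 0.0762 in the permutation test, and were called (0.0381) when Day 3 replicate 1 was left out for *Apc* and when either Day 1 library was left out for *Apcdd1* and *Tcf7*. The difference to *Tcf7l1* was not called (adjusted p = 0.124): it was 0.48 at Day 0, 0.41 at Day 1, 1.09 at Day 2 and 1.44 at Day 3, with *Tcf7l2* the higher gene in 8 of 8 libraries. A p above the threshold does not show that the courses of *Tcf7l2* and *Tcf7l1* were alike. Permuting days only within replicate numbers, which keeps the block, allows a smallest p of 0.0417, so that a call after adjustment would need 7 of the 8 differences at that value; none was called in that version (adjusted p = 0.111 for the 4), which says little at this size. None was called without Day 2 replicate 1, Day 2 replicate 2 or Day 3 replicate 2, and the call for *Lrp6* was lost without Day 3 replicate 1 as well.

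**Figure D3:**
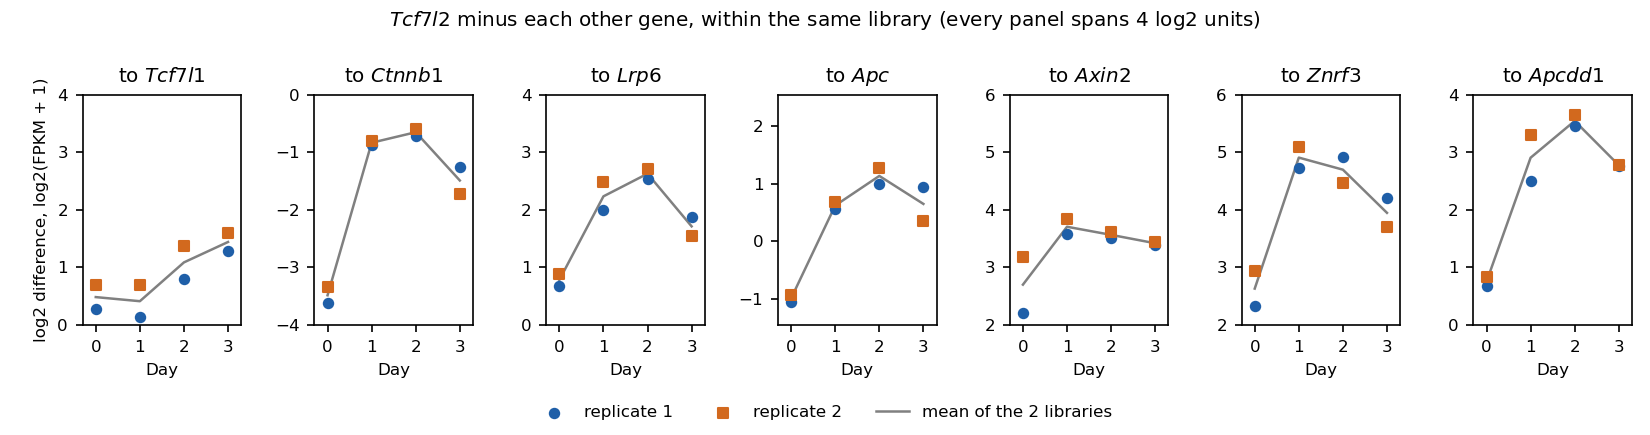
Difference in log2(FPKM + 1) between *Tcf7l2* and 7 other genes in the same library (y axis, every panel spans 4 log2 units from a start of its own) against day; points are libraries and lines join the means of 2. The difference to *Ctnnb1* went from -3.48 to -0.65 by Day 2, and the difference to *Tcf7l1* was 0.48 at Day 0 and 1.44 at Day 3.

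Across the 8 libraries, the Pearson r of log2(FPKM + 1) with *Tcf7l2* was 0.834 for *Axin2*, 0.820 for *Tcf7l1*, 0.467 for *Lrp6*, 0.029 for *Apc*, -0.445 for *Apcdd1*, -0.519 for *Znrf3* and -0.829 for *Ctnnb1*. These r describe 8 points that share days, depth and culture, and with 8654 genes of mean FPKM 5 or more compared, *Axin2* came 331st and *Tcf7l1* 367th. The 5 genes most like *Tcf7l2* by this measure were *Zfp740* (r = 0.987), *Ust* (0.986), *Folr2* (0.985), *Tspan17* (0.984) and *Vps37b* (0.983). *Ust*, a uronyl sulfotransferase, was at 3.20 and 4.57 FPKM at Day 0, 43.8 and 77.9 at Day 1, 55.0 and 45.8 at Day 2, and 24.4 and 11.7 at Day 3. *Vps37b*, a subunit of the endosomal sorting complex, was at 36.9 and 36.7, 74.6 and 87.8, 93.1 and 97.5, and 69.3 and 45.7 FPKM on the same days. All 5 were low at Day 0, high in the middle and in between at Day 3, a course that follows from picking them by r with *Tcf7l2*.

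Stage markers place this course. The 5 markers of committed and newly formed OLs (*Gpr17*, *Bcas1*, *Enpp6*, *Itpr2* and *Bmp4*) had r between 0.463 and 0.967 with *Tcf7l2*, and their summed level was 760.0 and 850.9 FPKM at Day 0, 1942 and 2521 at Day 1, 2557 and 2234 at Day 2, and 697 to 1369 at Day 3. *Bmp4*, a secreted ligand that restrains OL differentiation, was at 5.23 and 4.50 FPKM at Day 0, 61.3 and 83.1 at Day 1, 30.9 and 9.79 at Day 2, and 9.66 and 2.62 at Day 3. *Gpr17*, a receptor of newly committed cells, was higher on the middle days than at the ends by 0.92 (adjusted p = 0.00884), with a mean of 451.4 ± 4.08 (SD, n = 2) FPKM at Day 1. *Pdgfra*, the receptor used to purify the OPCs, had r = -0.711, the 4 OPC markers together had r between -0.782 and 0.332 with *Lhfpl3* the positive one, and the 8 mature markers had r between 0.280 and 0.813. *Secisbp2l* (Sbp2l), the RNA-binding protein gene that the study sets beside *Tcf7l2*, had r = 0.498. It was at 34.8 and 31.9 FPKM at Day 0, 66.0 and 57.8 at Day 1, 207.0 and 299.6 at Day 2, and 315.2 and 357.2 at Day 3, so its highest libraries were those of Day 3, while those of *Tcf7l2* were those of Day 2. *Mbp*, the myelin basic protein gene, was at 8753 and 11945 FPKM at Day 3, and *Mobp*, another myelin gene, at 432.0 and 1227. In both, as in *Secisbp2l*, Day 3 replicate 2 was the higher Day 3 library, whereas in *Tcf7l2* and the other 7 tested genes of the 10 it was the lower. In 2 of the 8 mature markers, *Opalin* (24.7 and 4.68 FPKM at Day 3) and *Aspa* (0.597 and 0), it was also the lower. How many of all genes were lower in that library was not counted.

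The wider pathway was read from 6 lists of 113 genes in all, of which 112 were in the table, 20 were at 0 in every library and 76 were tested. From Day 0 to Day 3, 9 of the 76 rose and 19 fell, and without the 10 genes it was 8 and 16 of 68. As shares these are 11.8% and 25.0% of the 76, near the 12% and 26.3% of all genes. With the replicate block 10 rose and 22 fell, the added calls being *Tnks2* (higher, adjusted p = 0.0496) and *Nkd1*, *Tle3* and *Apc2* (lower, 0.00712, 0.0211 and 0.0452). The median log2 fold change of the 76 was -0.23, against -0.31 for all genes tested. The scaling shapes that split: with median ratio scaling 15 of the 76 were called higher (19.7%) and 11 lower (14.5%), against 17.5% and 16.8% of all genes, and over all genes the share of higher calls went from 31.3% to 51.0%.

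Of the ligands and R-spondins, 12 of 23 were at 0, among them *Wnt1* and *Wnt3a*, and 2 of the 7 tested rose (28.6%, against 12% of all genes). *Wnt3*, a canonical ligand, was at 0 and 0.262 FPKM at Day 0, 0 and 0.251 at Day 1, 0.527 and 2.89 at Day 2, and 3.24 and 7.04 at Day 3, a rise of 2.38 (SE 0.517, adjusted p = 0.00802). *Wnt4* was at 0 in both Day 0 libraries and at 1.63 and 1.84 FPKM at Day 3 (adjusted p = 0.00937). Both were called with median ratio scaling too. However, *Wnt3* reached 1 FPKM only in libraries of Days 2 and 3, and *Wnt4* only in those of Day 3. The filter on low values thus kept both through the days on which they were high, so their share cannot be read as an excess.

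Of the receptors and co-receptors, 2 of 17 rose (11.8%, against 12% of all genes) and 7 fell (41.2%, against 26.3%), or 4 and 5 with median ratio scaling (23.5% and 29.4%, against 17.5% and 16.8%). The Frizzled receptor genes split: *Fzd5* and *Fzd8* rose, *Fzd8* from 5.38 ± 1.00 to 11.7 ± 2.02 (SD, n = 2) FPKM, while *Fzd1* and *Fzd2* fell by 1.45 and 1.49 (adjusted p = 0.0199 and 0.0155). All 4 were called with median ratio scaling too. *Ptk7*, a co-receptor of non-canonical signaling, fell by 1.90 (SE 0.240) from 12.1 and 16.9 FPKM to 3.02 and 3.19. *Ror2*, a receptor for Wnt5a, fell by 1.80, and *Lgr5*, the R-spondin receptor known from intestinal stem cells and itself a Wnt target, went from 4.29 and 3.63 FPKM at Day 0 to 0.346 and 0 at Day 1 (adjusted p = 0.00813). Both *Ror2* and *Lgr5* reached 1 FPKM only in the Day 0 libraries. *Fzd2* reached it only in those of Days 0 and 1, and *Fzd5* only in those of Days 1 to 3. The filter thus kept these genes through the days on which they were high, so neither the share of rises nor that of falls can be read as an excess.

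Of 8 inhibitors tested only *Apcdd1* was called (12.5% lower, against 26.3% of all genes), and 2 had an unadjusted p under 0.05, both lower; with median ratio scaling none of them was called. Of 21 cytoplasmic genes 3 rose (14.3%, against 12% of all genes) and 4 fell (19%, against 26.3%), but 5 rose (23.8%, against 17.5%) and 1 fell (4.76%, against 16.8%) with median ratio scaling. *Daam1* and *Daam2*, formins that link Dishevelled to actin, rose by 1.58 (adjusted p = 0.00132) and 1.32 (adjusted p = 0.0215). *Daam1* was at 17.6 and 17.7 FPKM at Day 2 and 47.5 and 80.5 at Day 3, and it was the sole gene of the 6 lists called in that last step; with the replicate block *Jun* was also called higher (adjusted p = 0.0482) and *Tcf7l1* lower. *Tnks*, a tankyrase that promotes Axin turnover, rose by 0.47 (adjusted p = 0.0341), and *Axin1*, the constitutive scaffold, fell by 0.92 (adjusted p = 0.0147), a call that was lost with median ratio scaling (adjusted p = 0.0550).

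Of 19 nuclear genes 2 rose (10.5%, against 12% of all genes) and 6 fell (31.6%, against 26.3%), or 3 and 4 with median ratio scaling (15.8% and 21.1%, against 17.5% and 16.8%). Apart from *Tcf7l2*, the gene that rose was *Tle2*, a co-repressor that binds TCF factors, from 6.47 and 5.59 FPKM at Day 0 to 15.8 and 12.4 at Day 1 and 14.0 and 10.6 at Day 3. Its paralog *Tle4* went the other way, from 27.9 and 37.6 FPKM at Day 0 to 17.7 and 9.17 at Day 3, a fall of 1.28 (SE 0.301, adjusted p = 0.0113). *Ctbp2*, another co-repressor, fell by 1.55, and *Pygo1*, which links β-catenin to chromatin, fell by 1.23 with FPKM scaling (adjusted p = 0.0460) and was not called after median ratio scaling (adjusted p = 0.106).

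Of 10 common Wnt target genes tested, 4 fell (*Ccnd1*, *Myc*, *Lgr5* and *Apcdd1*), or 40% against 26.3% of all genes, and *Nkd1* was a further lower call with the replicate block. *Lgr5* passed the filter only through its Day 0 libraries, where it was high, so that share cannot be read as an excess. With limma none rose (against 12% of all genes), also at an unadjusted p under 0.05. *Ccnd1*, cyclin D1, went from 123.6 and 158.4 FPKM at Day 0 to 9.24 and 3.30 at Day 1, and Day 3 was below Day 0 by -3.62 (SE 0.383, adjusted p = 2.94e-04). *Myc* fell by 2.54 (SE 0.311) to 15.7 and 8.28 FPKM at Day 3. *Jun* was at 33.1 and 36.1 FPKM at Day 0, 11.5 and 7.36 at Day 1, 18.3 and 22.9 at Day 2, and 46.9 and 48.8 at Day 3. Its middle days were below the ends by -1.49 (adjusted p = 0.00311), opposite to *Tcf7l2* in that contrast. Day 1 against Day 0 (-1.80, adjusted p = 0.00159) and Day 3 against Day 2 (1.19, adjusted p = 0.0739) of *Jun* were opposite too. Day 2 against Day 1 of *Jun*, 1.07 (adjusted p = 0.0390), had the same sign as that of *Tcf7l2*. Its Day 3 against Day 0 difference, 0.46, was not called (adjusted p = 0.131), but with median ratio scaling it was the sole rise among these targets (0.77, adjusted p = 0.0285). All of these genes have inputs other than Wnt, and PDGF-AA was left out between Day 0 and Day 1.

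**Figure D4:**
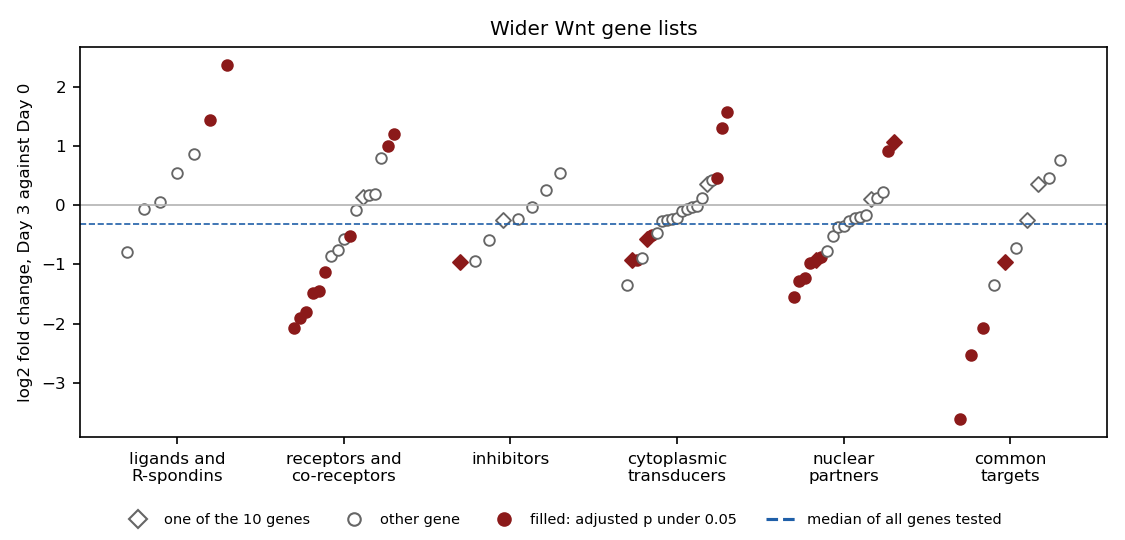
log2 fold change of Day 3 against Day 0 (y axis) for the tested genes of 6 Wnt lists, ordered by value within a list; diamonds are among the 10 genes, filled points passed an adjusted p of 0.05 and the dashed line is the median of all genes tested (-0.31). The lowest points are *Ccnd1* (-3.62) and *Myc* (-2.54) among the common targets, and the highest is *Wnt3* (2.38) among the ligands.

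A short search of promoter sequence (RefSeq, 250 bases before to 50 after a gene's start) for CTTTGAA or CTTTGAT on either strand, the core that TCF/LEF factors bind, gave no match in the 12 promoters of 6 of the 10 genes that had any. Of all 32851 promoters, 8.65% held a match. These letters can lie outside the window, and the comparison says nothing of where Tcf7l2 binds.

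Replicate 2 differed from replicate 1 across days in 0.680% of all genes higher and 0.369% lower, in a model that kept the day. With limma none of the 8 tested genes was among them; the nearest were *Tcf7l1* (-0.55, adjusted p = 0.174) and *Axin2* (-0.43, adjusted p = 0.479), each lower in replicate 2 on 4 of 4 days. *Tcf7l2* differed by -0.08 between replicates (adjusted p = 0.879). The astrocyte markers were the list that moved most clearly with the replicate number, with 8 of 9 higher in replicate 2 on every day. The exception, *S100b*, was higher in replicate 1 on every day. Their part in the values of the 10 genes was not tested.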

How the data were processed

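RNA was taken from cultured OPCs on Days 0 to 3, and 75-nt paired-end reads of stranded mRNA libraries were processed by the authors with OmicSoft software against mm10. The authors deposited a table of FPKM values per gene; FPKM is scaled to gene length and mapped fragments. Neither counts nor isoform values were used. The labels and the study's methods differ on growth medium and extraction kit. From the table, log2(FPKM + 1) of 12208 genes that reached 1 FPKM in 2 or more of 8 libraries was fitted with limma 3.58.1 in R 4.3.3 (lmFit, eBayes with a trend, day as a factor, two-sided, Benjamini-Hochberg over all genes tested). The study's own count test could not be run on FPKM. The exact permutation test was planned over 9 genes and run over 8, since *Lef1* was 0 throughout. p-values measure the spread between 2 libraries a day.

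Same-numbered libraries deviated from their day means together (Pearson r 0.164 to 0.285 for all pairs of days, mean 0.232), so the fit with the replicate number as a block (replicate block) is given where it changes a call of the 10 genes, or of the wider lists at Day 3; the labels do not say what a number shares. Fragment totals were estimated, after seeing the data, from genes with 1 annotated transcript, and levels of 5 of the 10 genes were whole fragments within 0.05.

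Named genes were the 10 genes, up to 3 rises and 3 falls past the threshold for each wider list, the 5 genes most like *Tcf7l2* with mean FPKM of at least 5, and *Secisbp2l*, *Mbp*, *Pdgfra*, *Bmp4*, *Gpr17*, *Mobp*, *Ccnd1* and *Jun*. *Wnt1* and *Wnt3a* (at 0), *Fzd1*, *Fzd2*, the genes that only the block called and the stage, astrocyte and endothelial markers were named after their values were seen. The genes, lists and tests were chosen with earlier results of these data known. Fits and the permutation test were tested on simulated data. Alternatives were a pseudocount of 0.1, no filter, median ratio scaling, the replicate block, no trend, only the days compared, and leaving out each library. Positions are from GENCODE mouse release 21 (GRCm38).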

Additional observations from a re-analysis of the deposited data

How the results depend on the processing

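No result of the 10 genes changed direction while called under any alternative. *Tcf7l2* kept its calls in the contrasts of Day 1 with Day 0 and of the middle days with the ends throughout. Its rise from Day 0 to Day 3 was 0.73 to 1.42 when each library was left out (adjusted p 0.00214 to 0.0519, the latter without Day 0 replicate 1, at 0.95), and its Day 3 against Day 2 difference was -1.17 to -0.49 (adjusted p 0.0313 to 0.481, called only without Day 3 replicate 1). Day 3 against Day 0, the count of genes called was 2 with median ratio scaling and 1 to 4 when each library was left out, 1 without Day 0 replicate 1 and 2 without Day 0 replicate 2 or Day 3 replicate 2. Day 3 against Day 2, it was 1 with the replicate block and 0 to 2 when each library was left out, 2 without Day 3 replicate 1. For the middle days against the ends it was 1 to 3, with 1 without Day 0 replicate 2, where *Tcf7l1* had an adjusted p of 0.0503. Of 8 courses set against that of *Tcf7l2* in the permutation test, 4 were called as planned, 2 with a pseudocount of 0.1, 2 with median ratio scaling, 0 with the replicate block, and 0 to 4 when each library was left out: 0 without Day 2 replicate 1, Day 2 replicate 2 or Day 3 replicate 2, and 2 without Day 0 replicate 1 or Day 3 replicate 1. The genes behind those counts differ, since *Apc*, *Apcdd1* and *Tcf7* were called in some of these fits and not as planned. The replicate block version allows a smallest p of 0.0417 and would need 7 of 8 at it. The cause of the other changes was not tested. *Apcdd1* from Day 0 to Day 3 also missed the threshold with a pseudocount of 0.1, no filter, no trend and only the days compared (adjusted p up to 0.0649), and *Ctnnb1* in the middle days with no trend (0.0851). The replicate block changed no call of the 10 genes other than those named. Over the 6 wider lists, 9 higher and 19 lower calls became 15 and 11 with median ratio scaling and 10 and 22 with the replicate block; fits without each library were read for the 10 genes only. With 960000 to 1530000 fragments a library, *Tcf7*, *Lef1*, *Znrf3*, *Axin2* and *Apcdd1* are limited by depth.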
